A study of Rattus norvegicus with 12 samples.

Results

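Corneas in the SF/HA group were compared with corneas in the Alkali-burned group by RNA sequencing of rat tissue, 3 libraries in each. The comparison covers every gene that reached 1 FPKM (fragments per kilobase of gene, scaled to the library's reads) in at least 3 of the 12 libraries of the series, which left 6112 of 30452 genes. At the edge of that rule, Adck5 had a third-highest value of 1.0007 FPKM and was kept, and Gins2 had 0.99996 FPKM and was left out. The series tests a silk-based eye patch, and its labels name 4 groups of 3 libraries: SF/HA-HEP-PAM, SF/HA, Alkali-burned and Control. The labels give no animal strain, age, dose or time after injury, and they leave SF, HA, HEP and PAM unexpanded. They also leave unsaid whether corneas of the patch groups were burned first, and whether replicates came from separate animals, so each p-value speaks only of the spread among these libraries.

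The cornea is covered by a stratified epithelium that seals the eye with tight junctions and a coat of membrane mucins, over a stroma of collagen made by keratocytes. An alkali burn strips epithelium, lets fluid into the stroma and draws in neutrophils and macrophages. Interferons, tumour necrosis factor and chemokines are among the signals released in injured corneas, and surface proteases, oxidases and transglutaminases are produced by stressed epithelium.

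Library depth differed between the groups. SF/HA libraries held 499061 to 957696 reads on genes and Alkali-burned libraries 1173159 to 1265298, without overlap (exact two-sided permutation p = 0.1, the smallest that 3 against 3 allows). A gene of 1 kb with no reads could still stand at 6.01 FPKM in the shallowest SF/HA library and at 2.37 FPKM in the deepest burned one, counting error alone considered. Thinned to the smallest library, SF/HA libraries detected 11823 to 12128 genes and burned libraries 11981 to 12006. The defining markers of corneal epithelium and keratocytes were present in all 6 libraries: epithelial markers summed to 2702 to 4016 FPKM in SF/HA and 2148 to 3484 in burned libraries, and keratocyte markers to 1387 to 1558 and 1109 to 1568. Markers of T cells, mast cells, pigment cells, vessels, skeletal muscle and Schwann cells summed to 2.57 FPKM or less in each library. Neutrophil markers set 1 library of each group apart. S100a8, a calcium-binding protein of neutrophils and stressed epithelium, stood at 1528, 128 and 174 FPKM in burned replicates 1 to 3 and at 256, 3298 and 432 FPKM in SF/HA replicates 1 to 3.

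Far more genes were lower under SF/HA than higher. A gene was called at an adjusted p below 0.05 and a difference above 1 on the log2 scale, from limma on log2(FPKM + 1) with Benjamini-Hochberg adjustment over all 6112 genes; log2 differences below are on that scale, SF/HA minus Alkali-burned unless another pair is named. By this rule 126 genes were lower (2.06% of those tested) and 23 were higher (0.376%). These 2 shares are the background for the counts of called genes in every list below. The median difference of all genes was -0.04. Of the 126 lower genes 119 were protein-coding, and their median level was 18.4 FPKM after the burn and 4.69 FPKM under SF/HA. Of the 23 higher genes 18 were protein-coding, and their median level was 9.33 FPKM after the burn and 27.4 FPKM under SF/HA. In all 126 lower and all 23 higher genes the libraries of the 2 groups did not overlap. Over all 6112 genes this was so downward in 821 (13.4%) and upward in 593 (9.70%). At an unadjusted p below 0.05 there were 1016 genes, and 204 passed the adjusted threshold at any size. In bulk tissue, fewer cells of a type and less RNA per cell cannot be told apart.

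**Figure D1:**
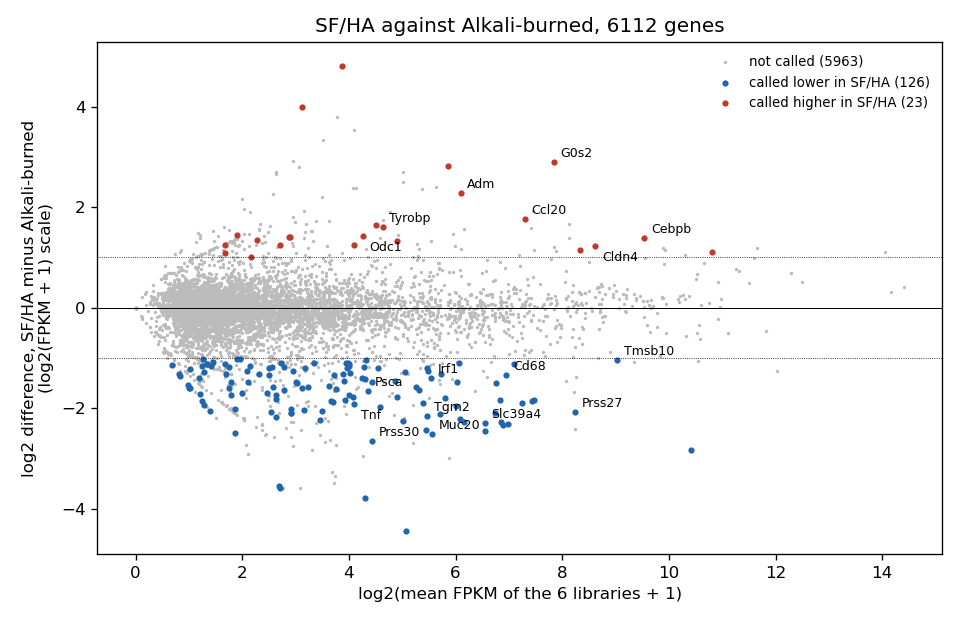
Each point is 1 of 6112 genes, with log2 of its mean FPKM over the 6 libraries (plus 1) on the x axis and its log2 difference between SF/HA and Alkali-burned on the y axis. Genes called lower are blue (126), genes called higher red (23) and all others grey, and dotted lines mark a log2 difference of 1 in either direction; blue points outnumber red ones.

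These counts depended on single libraries. The 126 lower genes became 68 without burned replicate 2, 71 without burned replicate 3, 80 without SF/HA replicate 1 and 64 without SF/HA replicate 2. The 23 higher genes became 13 without burned replicate 2, 9 without burned replicate 3 and 11 without SF/HA replicate 2. In the 6 fits that each left out 1 compared library, 55 lower and 9 higher genes kept their call throughout. After all libraries were thinned to equal depth, 80 of the 126 lower and 11 of the 23 higher genes were still called. Without the 4 libraries that an earlier analysis of these data had set apart, burned replicate 1 and SF/HA replicate 2 among them, 150 genes were lower and 45 higher.

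The lower genes shared an ordering of libraries that the call did not use. Burned replicate 1 was the lowest of its group in 94 of the 126 and burned replicate 2 the highest in 74. SF/HA replicate 3 was the highest of its group in 90 of them and SF/HA replicate 2 the lowest in 68. Over all 6112 genes, burned replicate 1 was lowest in 2022 and SF/HA replicate 3 highest in 2073. Replicate 2 of SF/HA, the shallowest library, was lowest in 2669 of all genes.

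Channel-activating and related serine proteases of the epithelial surface were among the lower genes. Of 20 tested epithelial proteases and inhibitors, 5 fell, 1 rose and 14 were not called, with a median difference of -0.11 beside -0.04 for all genes. Over all 6112 genes 2.06% were called lower and 0.376% higher. The 5 that fell were all membrane or secreted trypsin-like proteases. Prss30, which can activate the epithelial sodium channel, had the largest fall among them (ENSRNOG00000033266, build mRatBN7.2, chr10:13007341-13011030). It stood at 25.6, 42.4 and 40.5 FPKM in the burned libraries and at 4.06, 4.34 and 6.23 FPKM in the SF/HA libraries. The groups were far apart, with the highest SF/HA library below the lowest burned one, and the difference was -2.65 (SE 0.32, adjusted p = 0.00218). Control libraries lay between 4.46 and 12.5 FPKM, and SF/HA minus Control was -0.51 (adjusted p = 0.400).

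Prss8, or prostasin, another activator of the sodium channel and of barrier proteolysis, read 46.5, 76.2 and 72.9 FPKM after the burn and 13.4, 17.0 and 19.3 FPKM under SF/HA. It fell by 1.89 (SE 0.20, adjusted p = 0.00134), and the groups did not overlap. Kat8 overlaps Prss8 on the opposite strand, and the strand setting of the counting is not given in the sources used here, so reads of the pair cannot be told apart; Kat8 itself differed by -0.06. Prss32 fell from 11.9, 21.0 and 18.3 FPKM to 1.96, 2.30 and 4.45 FPKM (-2.23, adjusted p = 0.00338). Prss22 ranged from 142 to 247 FPKM after the burn and from 19.1 to 64.9 FPKM under SF/HA (-2.32, adjusted p = 0.0151), and Prss27 from 368 to 553 FPKM and from 78.9 to 157 FPKM (-2.08, adjusted p = 0.0121). Prss22 lost its call without burned replicate 2 or 3 (adjusted p up to 0.0768), and Prss27 without either of these or SF/HA replicate 2 (up to 0.0606).

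Most of these proteases are neighbours in the genome. Between chr10:12882504-13731372 (mRatBN7.2), 6 of 20 tested genes were called lower: Prss32, Prss30, Prss22, Prss27, the oxidase organizer Noxo1 and the nucleolar gene Tbl3. A second run, chr4:167903542-168232904, held 4 lower genes of 6 tested, the retinoid-inducible receptor genes Gprc5a and Gprc5d, the membrane protein gene Emp1 and Gsg1. Such runs were built from called genes that lie close together, and each begins and ends at a called gene. Their shares of called genes are therefore high by construction, beside 2.06% called lower over all 6112 genes. Other runs were found too, such as chr20:3119227-4558258 with 6 lower and 2 higher genes of 51 tested. Gprc5a fell from 40.4, 65.0 and 65.0 FPKM to 17.5, 16.8 and 19.2 FPKM (-1.59, adjusted p = 0.00588), with Control between 16.5 and 20.1 FPKM. The call of Emp1 (-1.09, adjusted p = 0.0381) was lost in 5 of the 6 fits that leave out 1 library, all but that without burned replicate 1 (adjusted p up to 0.153).

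The 1 gene of the protease list that rose encodes a receptor. Whether the proteases named above act on it was not tested. F2rl1, the trypsin- and tryptase-activated receptor PAR2 (chr2:26772278-26785226), read 3.88, 2.87 and 2.28 FPKM after the burn and 11.8, 8.98 and 8.06 FPKM under SF/HA. Every SF/HA library was above every burned one, and the rise was 1.41 (SE 0.20, adjusted p = 0.00429). Control libraries read 8.59 to 12.4 FPKM, and SF/HA minus Control was -0.10 (adjusted p = 0.817).

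The zinc importer Slc39a4 and the pump regulator Fxyd4 fell, each as the single called gene of its list. Slc39a4, which takes zinc into epithelial cells (ENSRNOG00000014314, chr7:108333381-108337553), read 124, 177 and 162 FPKM after the burn and 27.6, 27.4 and 36.8 FPKM under SF/HA (-2.29, SE 0.21, adjusted p = 0.00059). It was also below Control, which ranged from 70.5 to 96.2 FPKM (SF/HA minus Control -1.41, adjusted p = 0.00348). The 6 other tested genes of zinc transport and metallothioneins were not called; the metallothionein Mt2A read 2662, 1575 and 1710 FPKM after the burn and 3419, 4320 and 5729 FPKM under SF/HA (1.19, adjusted p = 0.0902). Fxyd4 fell from 60.5, 80.7 and 73.2 FPKM to 15.1, 7.27 and 17.0 FPKM (-2.43, adjusted p = 0.00429) and was the single called gene of 11 tested for sodium, chloride and water transport.

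Of 13 tested surface mucins and tetraspanins, 4 fell, none rose and 9 were not called, with a median of -0.72. Without SF/HA replicate 3, 2 of them passed as higher. The share called lower over all tested genes was 2.06%. Muc20, a membrane mucin of the ocular surface (chr11:67987800-68001495), read 61.9, 86.8 and 84.7 FPKM after the burn and 12.1, 6.29 and 25.2 FPKM under SF/HA (-2.52, SE 0.38, adjusted p = 0.00612). Its SF/HA libraries spread widely yet stayed below every burned library and below Control, which read 32.0 to 43.6 FPKM. Tspan1, a tetraspanin of secretory epithelium, fell from 141, 228 and 218 FPKM to 33.1, 24.3 and 64.4 FPKM (-2.33, adjusted p = 0.00588). Psca, a lipid-anchored surface protein of the Ly6 family, had the tightest libraries of the 4: 26.7, 31.8 and 32.4 FPKM after the burn, and 9.11, 8.73 and 8.88 FPKM under SF/HA (-1.65, SE 0.12, adjusted p = 0.000117). Tspan8 passed narrowly (-1.19, adjusted p = 0.0496) and lost the call without burned replicate 2 or 3 or SF/HA replicate 1 or 2 (up to 0.196). Lypd2, the most abundant member, read 4288 to 6742 FPKM after the burn and 1487 to 3670 FPKM under SF/HA and was not called (adjusted p = 0.112). Summed markers of conjunctival and goblet epithelium, which also makes such proteins, overlapped at 232 to 478 FPKM after the burn and 172 to 348 FPKM under SF/HA. Most of these sums was Krt13, at 228 to 472 FPKM and 162 to 333 FPKM. Krt4 went the other way, at 4.65 to 6.57 FPKM and 8.01 to 15.6 FPKM. Neither was called, and the part of this epithelium in these falls was not tested.

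Of 4 tested genes of epithelial peroxide production 2 fell and 2 were not called, beside 2.06% of all tested genes called lower. Duoxa2, which matures the dual oxidase DUOX2, read 101, 128 and 123 FPKM after the burn and 25.7, 15.5 and 32.0 FPKM under SF/HA, without overlap (-2.27, SE 0.26, adjusted p = 0.00183). Duox2 overlaps it on the opposite strand but held 70 reads in total, beside 1695 for Duoxa2. Noxo1, organizer of NOX1-type oxidases, fell from 7.06, 11.7 and 11.1 FPKM to 4.57, 3.06 and 2.96 FPKM (-1.26, adjusted p = 0.0220), a call lost without burned replicate 2 or 3 or SF/HA replicate 2 or 3 (up to 0.101).

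Cornification and keratin genes were mixed. Of 16 tested cornified envelope genes and transglutaminases 2 fell, and of 15 keratins 2 fell, with none higher in either group and medians of -0.36 and -0.22. Without burned replicate 1 the envelope group had 4 lower genes and the keratins 1 higher gene. Tgm2, a protein-crosslinking transglutaminase (chr3:146772687-146801981), read 63.9, 72.7 and 75.6 FPKM after the burn and 16.5, 10.4 and 19.8 FPKM under SF/HA (-2.16, SE 0.21, adjusted p = 0.000819). Control read 29.4 to 36.0 FPKM, so the SF/HA libraries were below both groups (SF/HA minus Control -1.04, adjusted p = 0.0172), though that call was lost without Control replicate 2 or SF/HA replicate 2 (up to 0.0667). The protease inhibitor and envelope precursor Csta (-1.61, adjusted p = 0.0439) lost its call in every fit but that without burned replicate 1 (up to 0.171). Krt23 (-1.58, adjusted p = 0.0106) lost it without burned replicate 3 or SF/HA replicate 2 (up to 0.0541), and Krt80 (-1.33, adjusted p = 0.0483) without burned replicate 2 or 3 or SF/HA replicate 1 or 2 (up to 0.181).

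Larger but unsteady differences in the same groups missed the threshold. Crct1, an envelope-associated gene, read 577, 501 and 431 FPKM after the burn and 44.5, 132 and 134 FPKM under SF/HA (-2.42, adjusted p = 0.0550). The envelope precursor Sprr3 read 23.5, 72.7 and 62.3 FPKM and 5.46, 8.12 and 19.0 FPKM (-2.20, adjusted p = 0.0585). Krt17, a keratin of wounded epithelium, read 195, 104 and 101 FPKM and 329, 622 and 320 FPKM (1.66, adjusted p = 0.0566). Sprr1b, another envelope precursor, read 5.84, 1.80 and 5.63 FPKM and 17.1, 146 and 11.9 FPKM (2.69, adjusted p = 0.249), on 3, 1 and 3 reads in the burned libraries and 5, 32 and 5 in the SF/HA libraries. The groups did not overlap for any of these 4 genes, of which 2 were lower and 2 higher under SF/HA. Over all tested genes 13.4% were separate downward and 9.70% upward.

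Of 18 tested S100 and antimicrobial genes 1 fell, S100a7a, an antimicrobial and chemotactic protein of inflamed epithelium. It read 56.7, 105 and 91.5 FPKM after the burn and 18.9, 15.9 and 19.7 FPKM under SF/HA (-2.11, SE 0.24, adjusted p = 0.00183). Control libraries read 3.94 to 4.79 FPKM, so SF/HA lay between Control and the burn (SF/HA minus Control 1.87, adjusted p = 0.00176). Slpi, the antileukoprotease and the most abundant of the group, overlapped between groups at 1512 to 2220 FPKM and 1672 to 4548 FPKM (0.77, adjusted p = 0.353).

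**Figure D2:**
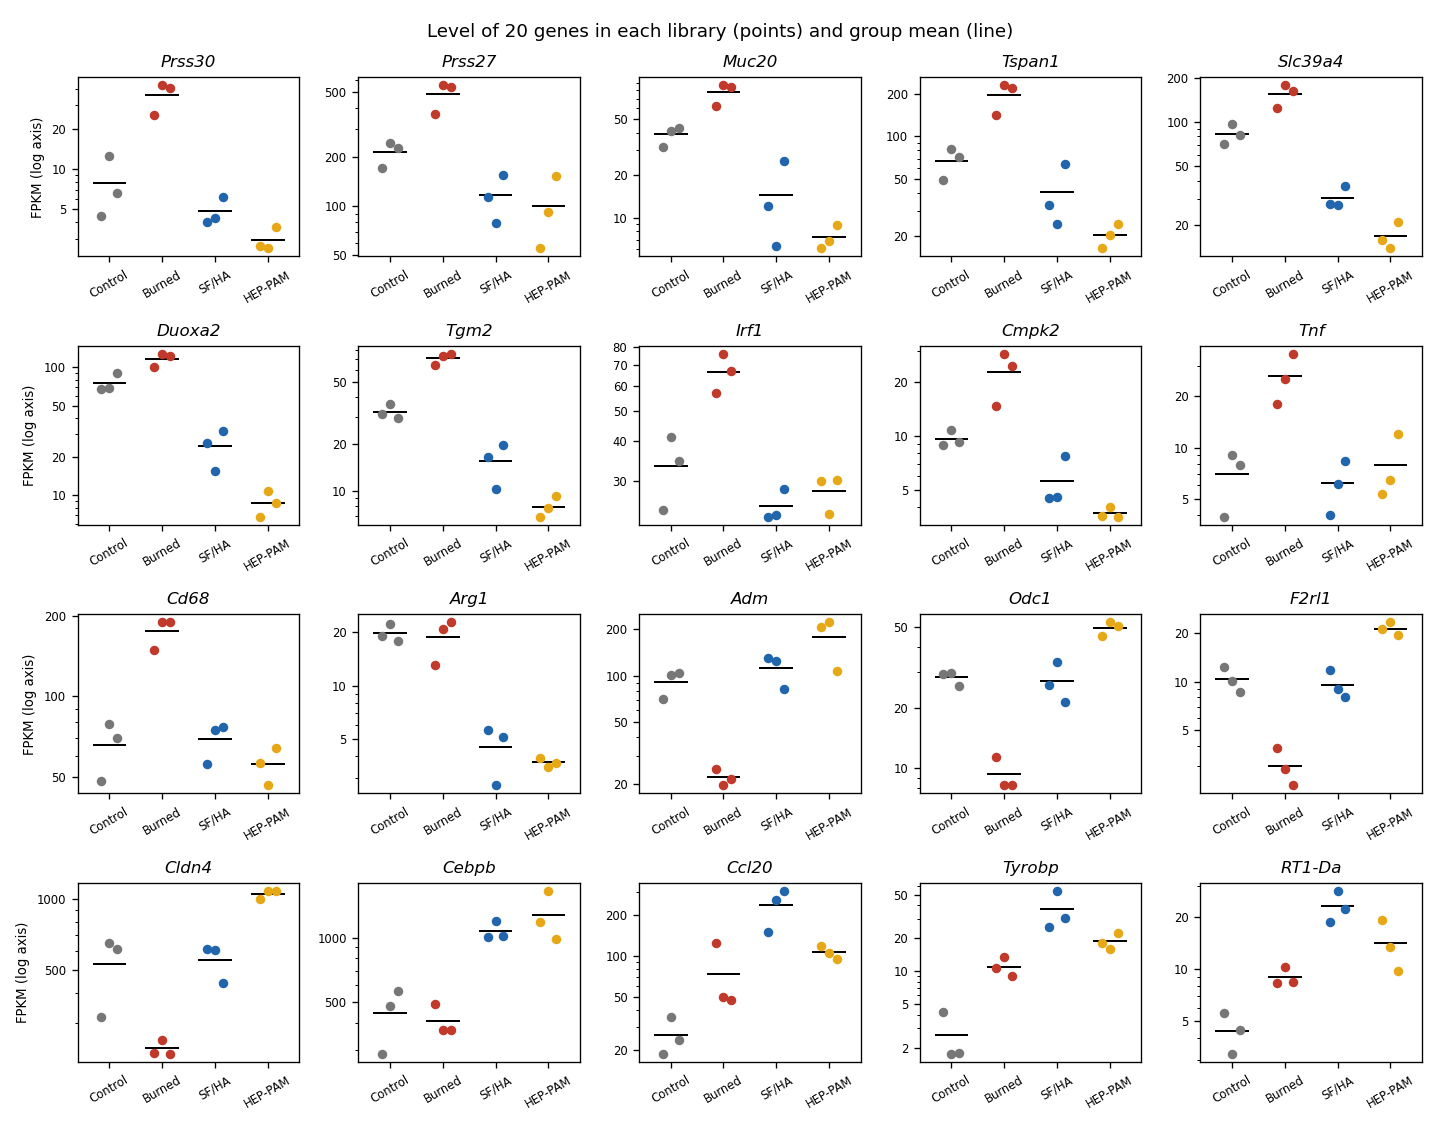
Each point is the FPKM of 1 library (log axis) for 20 genes in the 4 groups, and each short line is the mean of a group's 3 libraries. Genes such as Prss30, Slc39a4 and Duoxa2 are highest in the burned libraries and lower in SF/HA, while Adm, Odc1, F2rl1 and Cldn4 are lowest in the burned libraries.

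Some barrier genes of corneal epithelium were among those that rose, and one claudin fell. Of 25 tested epithelial markers 3 rose, none fell and 22 were not called, with a median of 0.41 and 23 above 0. Cldn4, a sealing claudin of tight junctions (chr12:21751331-21753436), read 224, 254 and 222 FPKM after the burn and 611, 606 and 442 FPKM under SF/HA (1.23, SE 0.25, adjusted p = 0.0242). Cldn1, another sealing claudin, rose from 1.12, 2.29 and 1.73 FPKM to 5.24, 7.93 and 4.62 FPKM (1.34, adjusted p = 0.0198), and Grhl3, a transcription factor of barrier epithelium, from 0.826, 1.11 and 1.13 FPKM to 3.42, 4.26 and 2.38 FPKM (1.09, adjusted p = 0.0180). All 3 had libraries that did not overlap, and their SF/HA levels did not pass the test against Control (SF/HA minus Control 0.12, 0.60 and 0.32, adjusted p = 0.829, 0.210 and 0.414).

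Cldn23, a claudin outside the list that was picked out after its values were seen, fell from 126, 178 and 168 FPKM to 57.3, 37.4 and 75.04 FPKM (-1.50, adjusted p = 0.0202). Control read 113 to 170 FPKM, and SF/HA minus Control was -1.43 (adjusted p = 0.0173). The call against the burn was lost without burned replicate 2 or 3 or SF/HA replicate 1 or 2 (up to 0.0946).

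The 3 higher calls were fragile. Cldn4 and Grhl3 lost theirs in every fit that left out 1 compared library except that without SF/HA replicate 3 (adjusted p up to 0.101 and 0.0697), and Cldn1 without burned replicate 1 or 3 or SF/HA replicate 1 or 2 (up to 0.0797). The desmosomal cadherins Dsc2 (0.93, adjusted p = 0.0583) and Dsc3 (0.87, adjusted p = 0.0551) were not called, and neither was Krt12, the keratin of differentiated corneal epithelium, which overlapped at 1033 to 1878 FPKM after the burn and 1366 to 1950 FPKM under SF/HA (0.05, adjusted p = 0.967; its sign turned under some other settings).

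Adm and Odc1 rose and kept their calls whichever compared library was left out. Adm, which encodes the vasoactive and barrier-stabilising peptide adrenomedullin (ENSRNOG00000027030, chr1:164745466-164747654), read 24.9, 19.5 and 21.4 FPKM after the burn and 130, 125 and 82.5 FPKM under SF/HA (2.29, SE 0.29, adjusted p = 0.00324). Control read 70.5 to 104 FPKM, and SF/HA minus Control was 0.29 (adjusted p = 0.612). Adm is a known hypoxia target and was the single called gene of 22 tested for hypoxia and glycolysis, whose median was 0.19. Of these 22 differences 16 were above 0 and 6 below. In 6 of the 22 all SF/HA libraries lay above all burned ones and in 3 below, beside 9.70% and 13.4% of all tested genes. The part of hypoxia in the rise of Adm was not tested. Odc1, the first enzyme of polyamine synthesis, rose from 11.4, 8.30 and 8.24 FPKM to 25.9, 33.7 and 21.4 FPKM (1.43, SE 0.18, adjusted p = 0.00324), with Control at 25.7 to 29.8 FPKM. A small nucleolar RNA gene lies within Odc1 on the same strand and held 28 reads beside 574. Arg1, the arginase that makes ornithine for this pathway and a marker of repair macrophages, fell from 13.1, 20.9 and 22.8 FPKM to 5.65, 2.73 and 5.11 FPKM (-1.87, adjusted p = 0.00367). Control Arg1 read 17.9 to 22.3 FPKM, so the SF/HA level was below Control too (SF/HA minus Control -1.96, adjusted p = 0.00176). The other 10 of 12 tested polyamine and arginine genes were not called.

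Interferon response genes were lower almost throughout, though few passed the test. Of 21 tested, 3 fell (14.3%), none rose, and 18 were not called. Over all 6112 genes 2.06% were called lower. All 21 differences were below 0, with a median of -0.79, and in 17 the 3 SF/HA libraries all lay under the 3 burned ones; over all 6112 genes such a separation was seen downward in 821 (13.4%) and upward in 593 (9.70%). The genes of the list share libraries and regulation, so these are not independent observations.

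Irf1, the transcription factor that drives antigen presentation and interferon genes (ENSRNOG00000008144, chr10:37916670-37924166), read 57.0, 76.2 and 67.1 FPKM after the burn and 23.0, 23.3 and 28.1 FPKM under SF/HA (-1.39, SE 0.21, adjusted p = 0.00588). Cmpk2, a mitochondrial nucleotide kinase induced by interferon, read 14.7, 28.8 and 24.6 FPKM and 4.47, 4.57 and 7.70 FPKM (-1.83, adjusted p = 0.00376). Oasl, an antiviral protein of the oligoadenylate synthetase family, read 17.2, 22.6 and 22.8 FPKM and 8.23, 9.75 and 7.54 FPKM (-1.20, adjusted p = 0.00874). For these 3 genes no fit without 1 library ended the call, and for each the groups were separate.

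The members that missed the threshold included Irf7, the inducer of type I interferon, at 35.1, 64.4 and 69.1 FPKM after the burn and 7.76, 10.97 and 27.7 FPKM under SF/HA (-1.93, adjusted p = 0.234). Isg20 passed the adjusted threshold but not the size (-0.95, adjusted p = 0.0386). Gbp2, a guanylate-binding protein, read 24.1 to 29.9 FPKM after the burn and 12.9 to 14.8 FPKM under SF/HA (-0.87, adjusted p = 0.102), and Usp18 (-0.96, adjusted p = 0.0726) and Ifit3 (-0.92, adjusted p = 0.197) were not called. B2m, the most abundant, overlapped between groups (-0.45, adjusted p = 0.413).

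Outside the list, other called genes named for interferon or nucleic acid sensing were lower as well; they were picked out after their values were seen. Zbp1, a sensor of Z-form nucleic acid, fell from 7.70, 13.1 and 12.4 FPKM to 4.13, 2.67 and 2.88 FPKM (-1.50, adjusted p = 0.00444). Irgm (-2.10, adjusted p = 0.0177), Ifi47 (-1.69, adjusted p = 0.0188) and Apol9a (-1.78, adjusted p = 0.0162), all induced by interferon, each lost the call without burned replicate 2 or 3 or SF/HA replicate 1 or 2 (up to 0.0848, 0.0921 and 0.0797).

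Stretches of promoter show the motifs by which such genes are usually recognised. They are from RefSeq, build GRCr8, each 60 bases long from within the 250 bases upstream of the gene start, and read 5′ to 3′ on the gene's strand; capitals mark the interferon-stimulated response element core GAAANNGAA or, in Irf1, the gamma-activated site TTCNNNGAA, in either orientation. Capitals mark 1 match in each stretch, and in Psmb10 a further match that overlaps it is left in lower case. Irf1 lies at chr10:38417767-38417826 (plus strand), Cmpk2 at chr6:48802733-48802792 (plus), Irgm at chr10:33742579-33742638 (minus) and Psmb10, a subunit of the immunoproteasome, at chr19:50743332-50743391 (minus).
Irf1: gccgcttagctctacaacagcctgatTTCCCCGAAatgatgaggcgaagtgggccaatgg
Cmpk2: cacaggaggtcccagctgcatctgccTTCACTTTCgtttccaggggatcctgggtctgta
Irgm: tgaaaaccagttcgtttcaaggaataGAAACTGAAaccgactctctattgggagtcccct
Psmb10: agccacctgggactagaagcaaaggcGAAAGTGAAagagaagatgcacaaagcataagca

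The interferon motifs were not common among the lower genes as a whole. Promoter windows of 250 bases were matched by symbol for 3916 tested genes, 76 of them called lower and 12 higher. GAAANNGAA on either strand was in 7 of the 76 (9.21%), in 6.46% of tested genes with a window and in 8.12% of all 33469 windows. TTCNNNGAA was in 6 of the 76 (7.89%) beside 6.38% and 7.67%. In all 17 strings were counted, and a few longer forms had been looked at before.

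The AP-1 site TGANTCA was singled out after all shares were seen. It was in 14 of 76 lower genes (18.4%), in none of 12 higher genes, in 5.70% of tested genes with a window and in 6.34% of all windows. AP-1 was not the only string with a larger share in lower genes. The antioxidant response element core TGANNNNGC was in 43 of the 76 (56.6%) beside 39.45% of tested genes. The KLF string CACCC was in 51 (67.1%) beside 57.4%. Shares for the hypoxia core ACGTG were 7.89% in lower genes and 24.1% in tested genes. The NF-kB core GGGANTTTC was in 2 of the 76 (2.63%) beside 1.30%, and the cyclic AMP core TGACG, which shares letters with some AP-1 sites, in 18.4% beside 31.3%. A match is a description of the letters and not a binding site. The 4 windows below are of lower genes with different roles: the lysosomal glycoprotein Cd68 (chr10:54882614-54882673, minus strand), the autophagosome protein Map1lc3b (chr19:66574535-66574594, plus), the glutaredoxin Glrx (chr2:7073617-7073676, plus) and the epithelial membrane protein Emp1 (chr4:169943991-169944050, plus), in build GRCr8 with TGANTCA in capitals.
Cd68: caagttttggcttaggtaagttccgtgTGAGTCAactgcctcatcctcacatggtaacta
Map1lc3b: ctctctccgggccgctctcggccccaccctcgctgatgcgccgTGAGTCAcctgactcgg
Glrx: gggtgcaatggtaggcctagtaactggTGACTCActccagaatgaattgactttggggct
Emp1: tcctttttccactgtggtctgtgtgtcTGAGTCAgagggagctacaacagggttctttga

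Of 8 tested genes with RT1- symbols outside the class II list, grouped after their values were seen, 3 fell, none rose and 5 were not called. The share called lower over all tested genes was 2.06%. All 8 differences were below 0, from -1.48 to -0.34, and in 5 of the 8 the groups were separate, beside 13.4% of all tested genes downward. These genes share libraries and regulation, so they are not independent observations. Class I genes present peptides from inside any cell, and class II genes present those taken up by dendritic cells, macrophages and B cells. RT1-CE1, a class I gene (chr20:3555782-3559486, mRatBN7.2), fell from 83.3, 102 and 97.8 FPKM to 25.1, 33.0 and 43.4 FPKM (-1.48, SE 0.21, adjusted p = 0.00460). RT1-CE2 (-1.33) and RT1-CE14 (-1.29, adjusted p = 0.0401 for each) lost their calls in every fit that left out 1 compared library except that without SF/HA replicate 3 (up to 0.151). RT1-S3 read 47.1, 87.9 and 89.6 FPKM after the burn and 20.7, 22.6 and 36.6 FPKM under SF/HA (-1.44, adjusted p = 0.0773). Near-identical class I copies can share reads, so the division among them is uncertain. Psmb10 fell from 59.3, 60.5 and 60.3 FPKM to 25.5, 18.2 and 35.4 FPKM (-1.21, adjusted p = 0.0487), a call also lost in every such fit but that without SF/HA replicate 3 (up to 0.163).

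Of 7 tested class II genes 2 rose, none fell and all 7 differences were above 0, with a median of 0.84. The share called higher over all tested genes was 0.376%. In 6 of the 7 the groups were separate, beside 9.70% of all tested genes upward. Class II genes also share libraries and regulation, so they are not independent observations. RT1-Da, a class II alpha chain, read 8.30, 10.3 and 8.44 FPKM after the burn and 18.6, 28.2 and 22.2 FPKM under SF/HA (1.25, SE 0.25, adjusted p = 0.0227). RT1-Db1, its beta chain partner, read 1.87, 2.88 and 4.02 FPKM and 6.87, 9.61 and 7.95 FPKM (1.25, adjusted p = 0.0386). RT1-Da lost its call in every fit but that without SF/HA replicate 1 (up to 0.0980), and RT1-Db1 in all 6 (up to 0.146). RT1-Ba (1.18, adjusted p = 0.0596) and the invariant chain Cd74 (0.78, adjusted p = 0.203) were not called. Against Control the differences were larger: 2.15 for RT1-Da and 1.81 for RT1-Db1 (adjusted p = 0.00118 and 0.00427). The summed markers of dendritic cells, which are mostly these genes, were 93.2 to 139 FPKM under SF/HA and 45.6 to 59.0 FPKM after the burn; Flt3, a defining dendritic receptor, had 0 reads in all 6 libraries, and Itgax, another dendritic marker, had 10 reads in the burned and 7 in the SF/HA libraries. The part of dendritic cells in this result was not tested.

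**Figure D3:**
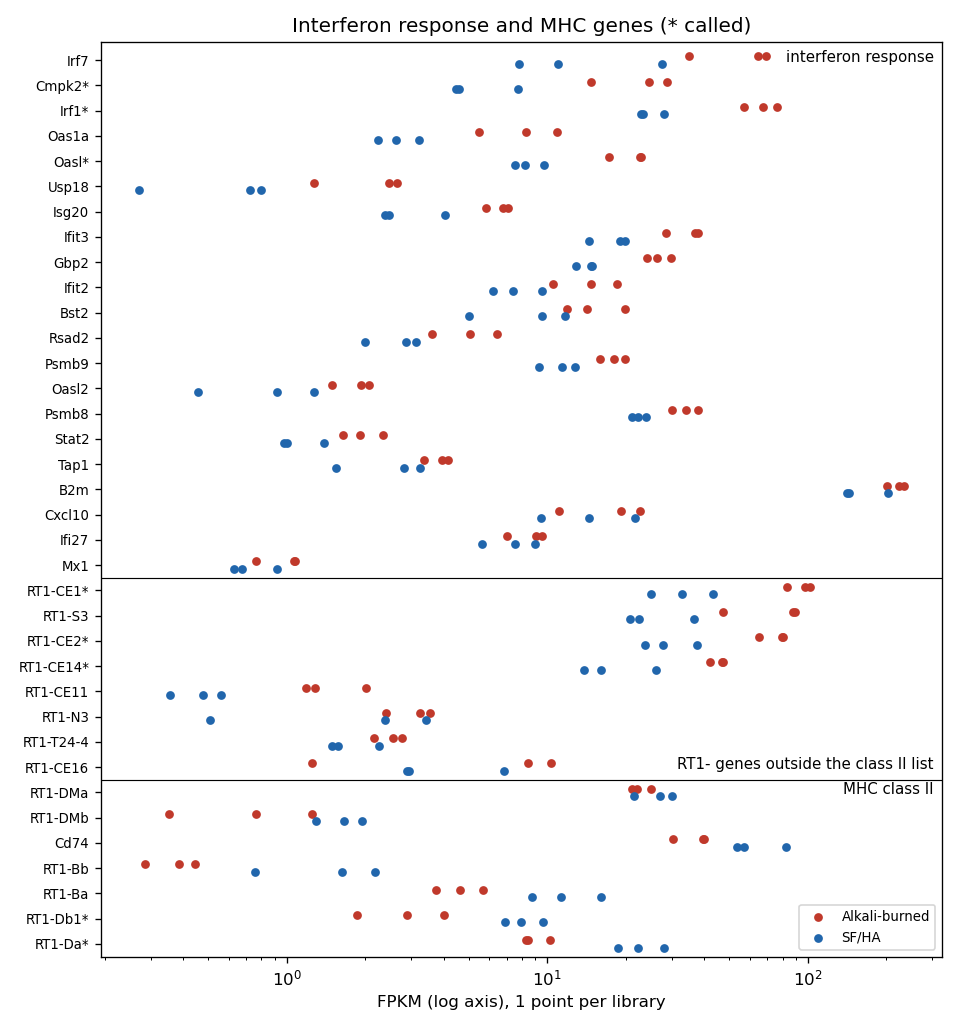
Each row is a tested gene of the interferon list (21), with an RT1- symbol outside the class II list (8) or of class II (7), with the FPKM of the 3 burned libraries in red and the 3 SF/HA libraries in blue on a log axis; an asterisk marks a called gene. Blue points lie left of all red points in 17 of 21 interferon rows and in 5 of the 8 RT1- rows between the lines, and right of them in 6 of 7 class II rows. Over all 6112 genes 13.4% were separate in the first way and 9.70% in the second.

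Macrophage markers lay mostly higher under SF/HA, with 11 of 16 differences above 0 and 5 below. Of the 16 tested, 1 rose, 2 (Cd68 and Arg1) fell and 13 were not called, with a median of 0.32. Cd68, a lysosomal glycoprotein of phagocytes (ENSRNOG00000037563, chr10:54381815-54383697, mRatBN7.2), read 149, 189 and 189 FPKM after the burn and 55.7, 74.5 and 77.1 FPKM under SF/HA (-1.34, SE 0.22, adjusted p = 0.00874). Control Cd68 read 48.1 to 79.1 FPKM. Arg1 overlapped between the burn and Control, at 13.1 to 22.8 FPKM and 17.9 to 22.3 FPKM. By contrast, C1qc and Lyz2 read only 0.313 to 1.91 FPKM and 3.83 to 7.06 FPKM in Control. Which cells the Cd68 and Arg1 reads come from was not tested. Tyrobp, the signalling adaptor of myeloid receptors, read 10.6, 13.3 and 8.95 FPKM after the burn and 25.2, 54.1 and 30.6 FPKM under SF/HA (1.60, SE 0.32, adjusted p = 0.0227), with Control at 1.76 to 4.27 FPKM. Its call was lost without each of the burned libraries and without SF/HA replicate 2 (up to 0.105).

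Other defining macrophage genes lay on the side of Tyrobp without being called. The complement component C1qc read 6.86, 8.77 and 9.58 FPKM after the burn and 11.2, 36.1 and 23.5 FPKM under SF/HA (1.26, adjusted p = 0.118). Lysozyme, Lyz2, read 35.7 to 38.5 FPKM and 47.2 to 99.5 FPKM (0.75, adjusted p = 0.199), and the Fc receptor chain Fcer1g 1.69 to 1.94 FPKM and 3.80 to 12.03 FPKM (1.28, adjusted p = 0.0753). No gene of the list other than Cd68 and Arg1 was called lower, and 5 of the 16 differences were below 0. Summed macrophage markers overlapped, at 219 to 274 FPKM after the burn and 149 to 296 FPKM under SF/HA. Cd68, which was called lower, was the largest part of the burned sums, so the overlap does not describe the other markers. Of the 6 markers of this set that were tested, 5 differences were above 0 and 1, that of Cd68, was below. Aif1 read 4.48 to 7.81 FPKM after the burn and 6.10 to 21.4 FPKM under SF/HA. The part of macrophage number in these values was not tested.

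Tnf was called lower, while no tested chemokine, interleukin or interleukin receptor gene was. Tnf, the cytokine that activates NF-kB (chr20:3622011-3624629), read 17.9, 25.3 and 35.4 FPKM after the burn and 4.00, 6.12 and 8.37 FPKM under SF/HA (-1.92, SE 0.38, adjusted p = 0.0207). Control read 3.93 to 9.05 FPKM. Its call was lost without burned replicate 2 or 3 or SF/HA replicate 1 or 2 (up to 0.0980). It was the single called gene of 18 in the TNF and NF-kB list, whose median was 0.19. Nfkbia, the inhibitor that NF-kB induces, read 1093 to 1170 FPKM after the burn and 1646 to 2088 FPKM under SF/HA (0.66, adjusted p = 0.221), and Tnfaip3, another such inhibitor, 3.83 to 5.57 FPKM and 6.80 to 10.6 FPKM (0.73, adjusted p = 0.0702).

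Among 18 chemokines 1 rose, beside 0.376% of all tested genes called higher, and of 16 interleukins and receptors none was called. The medians were 0.50 and 0.54. Without burned replicate 1, 2 chemokines rose, and without SF/HA replicate 3, 1 interleukin or receptor gene rose and 1 fell. Ccl20, the ligand of CCR6 on dendritic and Th17 cells, read 124, 49.9 and 47.6 FPKM after the burn and 149, 261 and 304 FPKM under SF/HA (1.76, SE 0.39, adjusted p = 0.0380). Burned replicate 1 came close to the lowest SF/HA library, and the call was lost without burned replicate 2 or 3 or SF/HA replicate 2 or 3 (up to 0.153). Control read 18.9 to 35.6 FPKM. Il1b read 25.9 to 31.1 FPKM after the burn and 43.7, 175 and 64.5 FPKM under SF/HA (1.47, adjusted p = 0.191). Il6 overlapped, at 9.15 to 20.04 FPKM and 11.6 to 37.4 FPKM (0.84, adjusted p = 0.351). Of the 16 interleukin and receptor differences 11 were above 0 and 5 below, the lowest at -1.09.

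Cebpb, an inflammatory and differentiation transcription factor, was the called gene of 22 tested immediate early and AP-1 genes. It read 489, 370 and 371 FPKM after the burn and 1002, 1196 and 1021 FPKM under SF/HA (1.39, SE 0.26, adjusted p = 0.0176), and lost the call without burned replicate 2 or 3 or SF/HA replicate 1 or 2 (up to 0.0833). G0s2, an inhibitor of lipolysis that neutrophils also express, read 65.8, 39.6 and 30.4 FPKM and 183, 812 and 237 FPKM (2.90, SE 0.61, adjusted p = 0.0295). Its highest library was SF/HA replicate 2, the one with the most S100a8; the call was lost without that library or burned replicate 2 or 3 (up to 0.125), and the part of neutrophils in it was not tested. Summed neutrophil markers overlapped, at 551 to 3566 FPKM after the burn and 792 to 8699 FPKM under SF/HA. Hcar2, a receptor for hydroxybutyrate and niacin on myeloid cells, rose (1.34, adjusted p = 0.0319), as did Ebi3, a subunit of interleukin-27 and interleukin-35 (1.41, adjusted p = 0.0492). Hcar2 kept its call without SF/HA replicate 3 alone (up to 0.118 otherwise), and Ebi3 likewise (up to 0.144).

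Stress and degradation genes gave isolated falls. Map1lc3b and Gabarapl2, ubiquitin-like proteins that coat autophagosomes, were noticed after their values were seen. Map1lc3b read 25.6, 28.4 and 28.5 FPKM after the burn and 9.69, 7.91 and 11.9 FPKM under SF/HA (-1.41, SE 0.16, adjusted p = 0.00183), and Gabarapl2 read 15.97, 18.3 and 17.4 FPKM and 5.84, 3.70 and 6.52 FPKM (-1.55, SE 0.18, adjusted p = 0.00183). A pseudogene overlaps Map1lc3b on the same strand (375 reads beside 1458). Both genes were near Control, which read 7.60 to 10.2 FPKM and 5.31 to 6.72 FPKM. Of 22 unfolded protein and heat shock genes 1 fell, Chac1, which degrades glutathione under endoplasmic reticulum stress (-1.49, adjusted p = 0.0161, lost without burned replicate 2 or 3 or SF/HA replicate 1 or 2, up to 0.0764). Of 12 complement genes Cd59, the membrane inhibitor of lysis, fell (-1.26, adjusted p = 0.0118, lost without burned replicate 2 or 3, up to 0.0606).

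The mean share of mitochondrial reads was larger in SF/HA libraries, though for protein-coding reads the groups almost touched. The 13 mitochondrially encoded proteins had a median of 0.51 with 1 called. Mt-nd3, a subunit of respiratory complex I, rose from 174, 225 and 203 FPKM to 387, 495 and 456 FPKM (1.15, SE 0.17, adjusted p = 0.00612). Mt-nd2 (0.86, adjusted p = 0.0183) and Mt-cyb (0.69, adjusted p = 0.0380) passed the adjusted threshold under the size limit. Protein-coding mitochondrial reads made up 4.18% to 7.51% of SF/HA libraries and 3.04% to 4.18% of burned libraries, and mitochondrial rRNA 2.98% to 3.89% and 2.51% to 2.87%. For protein-coding reads the lowest SF/HA library stood at 4.17721% and the highest burned one at 4.17711%. The 7.51% was that of SF/HA replicate 2, the shallowest library. For both shares the exact two-sided permutation p was 0.1, the smallest that 3 against 3 allows. The part of RNA quality in these shares was not tested.

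The calls of largest size included genes with few reads. Mir205, the hairpin gene of an epithelial microRNA, had 8, 7 and 8 reads in burned libraries and 0, 0 and 2 in SF/HA (adjusted p = 0.0385, lost in every fit but that without SF/HA replicate 3, up to 0.148). Priming with poly(dT) does not target mature microRNA, and what RNA these reads come from was not tested. The mature sequence (RefSeq, GRCr8, chr13:107564588-107564610, minus strand) is shown with its seed, bases 2 to 8, in capitals.
rno-miR-205: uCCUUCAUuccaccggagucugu

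Among the lower genes 13 had 0 reads in all 3 SF/HA libraries, and 12 had under 10 reads in each of the 6 libraries; among the higher genes 2 had 0 reads in all burned libraries and 4 had under 10 reads in each. Of these, the mitochondrial tRNA gene AY172581.23 had 0 reads in burned libraries and 1, 1 and 2 in SF/HA, which is too few to give a ratio. Over all tested genes 996 had under 10 reads in each library. The pseudogene ENSRNOG00000017710 on chromosome 4 had more: it rose from 14.2, 13.1 and 12.03 FPKM to 118, 104 and 78.5 FPKM (2.83, adjusted p = 4.26e-05), with 15 to 17 reads per burned library. A pseudogene can share reads with its parent gene, so this value is uncertain.

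The filter let in 331 genes that pass only with the burned libraries and 239 that pass only with SF/HA libraries; 15 of the 126 lower and 1 of the 23 higher genes were of these kinds. Gene span did not set the lower genes apart by much: their median span was 8031 bases beside 8470 for all tested genes, and 2422 for the higher genes. Of the 149 called genes 30 overlap another gene. Ppp1r11, a phosphatase inhibitor with one of the largest falls (121, 181 and 169 FPKM to 27.4, 18.3 and 41.2 FPKM; -2.45, adjusted p = 0.00134), overlaps Rnf39, which differed by -0.38, on the opposite strand.

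Several gene lists gave no call between SF/HA and the burn. None was called among 17 matrix proteases and inhibitors (median 0.10), 19 myofibroblast and collagen genes (-0.03), 11 keratocyte genes (0.02), 18 oxidative stress genes (0.03), 13 cell cycle genes (-0.12), 9 genes of EGF receptor ligands and Notch (0.35) and 56 ribosomal proteins (0.08). Mmp9, a gelatinase of healing epithelium, read 8.36, 1.34 and 2.19 FPKM after the burn and 0, 3.40 and 1.14 FPKM under SF/HA (-0.96, adjusted p = 0.512). Acta2, the myofibroblast actin, overlapped at 11.7 to 21.9 FPKM and 3.08 to 17.6 FPKM (-0.98, adjusted p = 0.353), and summed myofibroblast markers overlapped too, at 43.5 to 79.1 FPKM and 12.4 to 52.6 FPKM. All 3 tested markers of this set were below 0, from -1.05 to -0.91, and none was called. The median of -0.03 covers them together with collagens, with 9 differences above 0 and 10 below. Col1a1 read 338 to 365 FPKM and 438 to 494 FPKM (0.41, adjusted p = 0.639), and Kera, a stromal proteoglycan, 96.8 to 154 FPKM and 128 to 147 FPKM (0.24, adjusted p = 0.816). Vegfa, the vessel growth factor, overlapped at 7.11 to 11.7 FPKM and 7.03 to 17.4 FPKM (0.42, adjusted p = 0.606).

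**Figure D4:**
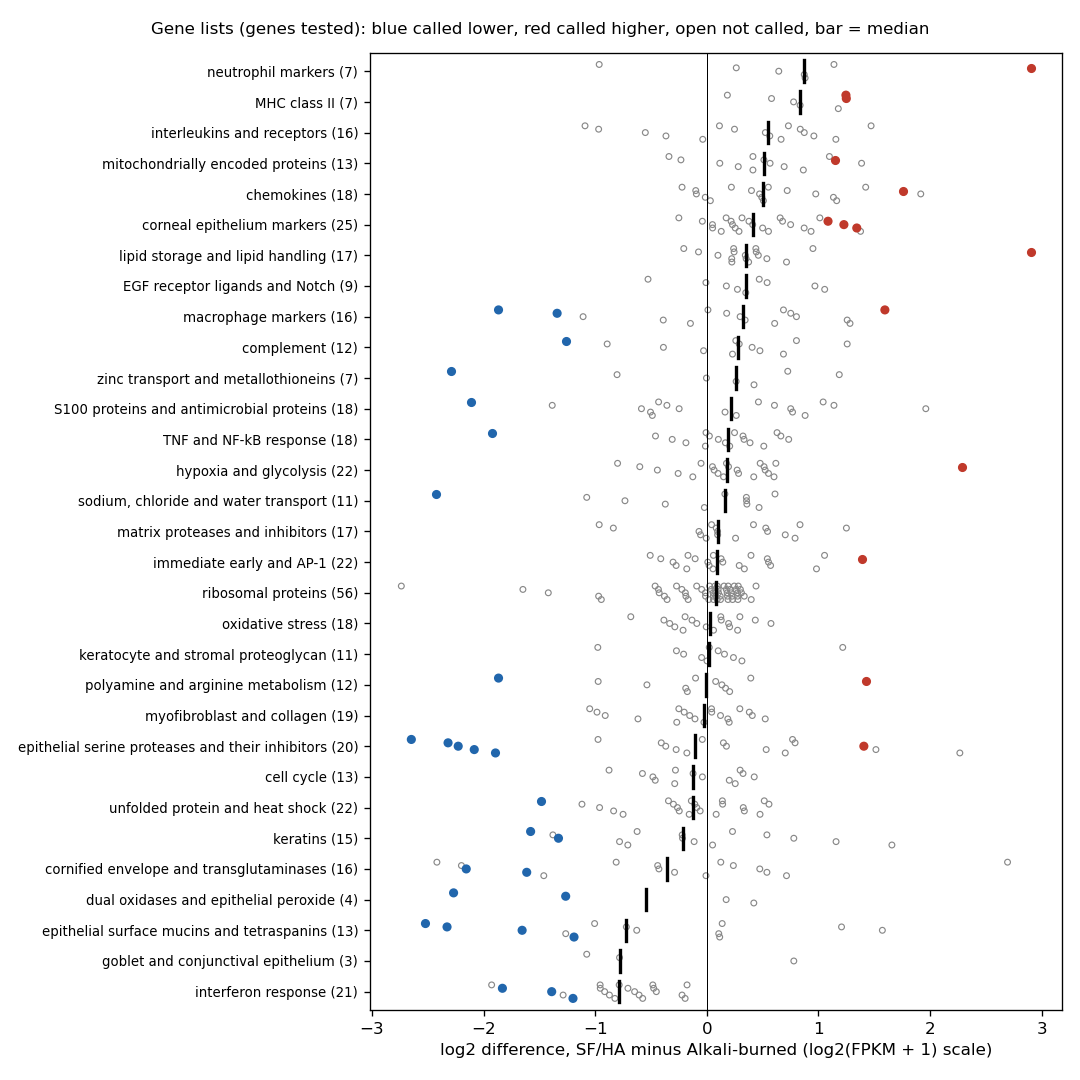
Each row is a gene list with its number of tested genes, each circle is 1 gene's log2 difference between SF/HA and Alkali-burned, and the bar is the list's median. Filled blue circles were called lower and filled red circles higher; most circles are open, and the interferon and mucin rows have medians of -0.79 and -0.72 while the class II row has 0.84.

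Against the other groups, SF/HA had its own differences. SF/HA minus Control had 195 genes higher (3.19%) and 84 lower (1.37%), and SF/HA-HEP-PAM minus SF/HA had 235 higher (3.84%) and 32 lower (0.524%); these share the SF/HA libraries with the comparison above. The 267 calls between the patches became 149 without SF/HA replicate 3, 154 without SF/HA-HEP-PAM replicate 1 and 152 without SF/HA-HEP-PAM replicate 3. Of the lower genes named, Duoxa2 was lower again under SF/HA-HEP-PAM, at 6.80 to 10.8 FPKM (SF/HA-HEP-PAM minus SF/HA -1.34, adjusted p = 0.0128). For Slc39a4, at 13.9 to 21.2 FPKM, that difference was -0.82 (adjusted p = 0.0369), under the size limit. Mt-nd3 read 187 to 271 FPKM under SF/HA-HEP-PAM (-0.997, adjusted p = 0.00874), just under the size limit. Of the higher genes named, Grhl3 read 9.60 to 12.99 FPKM (1.57, adjusted p = 0.00255), Cldn1 12.7 to 15.9 FPKM (1.12, adjusted p = 0.0284), Hcar2 67.7 to 108 FPKM (1.07, adjusted p = 0.0436) and F2rl1 19.5 to 23.3 FPKM (1.08, adjusted p = 0.00971) under SF/HA-HEP-PAM, all above SF/HA. Grhl3 kept this call whichever library was left out, F2rl1 lost it without SF/HA replicate 3, and Duoxa2 without SF/HA replicate 3 or SF/HA-HEP-PAM replicate 1 (adjusted p up to 0.0549). Cldn1 and Hcar2 kept it without SF/HA replicate 2 alone (up to 0.104 and 0.156 otherwise). Adm (0.63, adjusted p = 0.211), Irf1 (0.16, adjusted p = 0.673), Prss30 (-0.56, adjusted p = 0.306) and Cd68 (-0.31, adjusted p = 0.414) did not pass the test between the patches.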

How the data were processed

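Per the labels' protocols, reverse transcription of rat cornea RNA used poly(dT) primers with sample barcodes and molecular identifiers; whether duplicates were collapsed is not given in the sources used here. The deposited table holds FPKM of 12 libraries, which the authors computed after fastp and HTSeq-count, per the series text; the submitters' processing notes name bcl2fastq, fastp, STAR, featureCounts and DESeq2 on mRatBN7.2, so the 2 sources differ in the counting tool. Length in the table equals each gene's genomic span, introns included. FPKM times length gave back whole reads (largest deviation 9.295e-06), 486264 to 2117399 per library. Besides 30452 genes the table had 108 lines with no gene name, and these were not used.

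Differences were tested with limma 3.58.1 (variance trend) in R 4.3.3 on log2(FPKM + 1), with all 12 libraries in 1 model of 4 group means and the adjustment within each comparison. The script was tested on simulated data, with changes set in genes with ample reads. It called 17 of 100 genes changed 3-fold and 66 of 100 changed 6-fold, none in the wrong direction, and 6 unchanged genes. A gene that was not called may therefore still differ between the groups. Counting floors are 3 reads. Members, the 32 gene lists (638 of 688 symbols matched) and the marker sets were chosen with earlier results of these data known. Named genes were the 15 largest falls and the 15 largest rises among called genes with a symbol, a mean of 5 FPKM in 1 of the groups and libraries that do not overlap, list members, and fixed genes; not every gene that this allows is named, and other called genes were chosen after their values were seen. Alternatives were another pseudocount, filter, scaling, weighting, a replicate block, voom on recovered reads, thinning and leaving out libraries; leaving out single Control and SF/HA-HEP-PAM libraries was added after seeing the data. Promoter and microRNA sequences came from RefSeq (GRCr8), matched by symbol. Figures used Python 3.11.15 and matplotlib 3.10.9.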

Additional observations from a re-analysis of the deposited data

Results flagged for a closer look

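Among the named and called genes of the comparison, 13 differed between the patches by the direct test of SF/HA-HEP-PAM against SF/HA (limma, Benjamini-Hochberg adjusted p below 0.05 and a log2 difference above 1 or below -1), over 3 libraries each. Higher under SF/HA-HEP-PAM were Mir205 (3.91), AABR07026311.1 (1.65), ENSRNOG00000064048 (1.61), Grhl3 (1.57), Cldn1 (1.12), F2rl1 (1.08), Riox1, a chromatin hydroxylase (1.08), Hcar2 (1.07) and Dtx3l, a ubiquitin ligase (1.03). Lower under SF/HA-HEP-PAM were AY172581.23 (-3.82), Duoxa2 (-1.34), Clca4l (-1.06) and the chemokine Cxcl1 (-1.03). With each of the 6 libraries left out in turn, AABR07026311.1 and Grhl3 kept the call in all 6 fits, F2rl1 in 5, Duoxa2 in 4, ENSRNOG00000064048, Riox1 and AY172581.23 in 3, and Mir205, Clca4l, Cxcl1, Hcar2 and Cldn1 in 1. Dtx3l lost it in every such fit (adjusted p up to 0.144). Several of these rest on few reads: AABR07026311.1 and ENSRNOG00000064048 had 0 reads in all 3 SF/HA libraries, Riox1 1 to 2 and Dtx3l 2 to 3, and Mir205 and AY172581.23 at most 2 in any of them. The fitted differences of these 6 genes are no bound on the change.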

How the results depend on the processing

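None of the 149 calls changed direction in the 20 other settings, and 22 were called in every setting that tested them. The count of higher genes, 23, was 15 with a pseudocount of 5, 12 with no filter, 10 with only the compared libraries, 46 with library weights, 62 with voom, 15 after thinning, 45 without the 4 libraries that stood apart, and 9 to 34 with 1 compared library left out. The count of lower genes, 126, was 74 with a pseudocount of 5, 76 with no filter, 61 with only the compared libraries, and 64 to 148 with 1 library left out. SF/HA against Control called 279 genes, but 139 with a pseudocount of 5, 174 with no filter, 93 with only the compared libraries, 421 with voom, and 196 to 357 with 1 library left out. SF/HA-HEP-PAM against SF/HA called 267, but 143 with a pseudocount of 5, 173 with a filter of 5 FPKM, 177 with protein-coding genes only, 809 with voom, and 149 to 316 with 1 library left out. The share of higher genes among calls was 15.4%, and 26.1% with voom. Krt12 (0.05) turned to -0.0651 with library weights, -0.112 with quantile normalization, -0.1379 without the 4 libraries, and ranged from -0.2139 to 0.2167 with 1 compared library left out (below 0 without Alkali-burned replicate 1 and, at -0.1145, without SF/HA replicate 1). The causes were not tested. With the replicate block 23 genes were higher and 128 lower, and 256 and 245 were called in the other 2 comparisons. Deviations of same-numbered libraries correlated at -0.060, -0.035 and -0.010, and no library correlated best with its own number. These values show no sign of pairing, but with 3 libraries a group they cannot exclude it. Shallow SF/HA libraries limit genes with few reads.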
